A study of Mus musculus with 15 samples.

Results

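Aminoacyl-tRNA synthetases are the enzymes that load each tRNA with its amino acid. Their mRNA was followed in mouse 3T3-L1 preadipocytes, an established line whose cells fill with fat after hormonal induction. The genes were all those whose mouse symbol is a capital letter followed by ars, alone or with a final 1 or 2, plus Eprs, Farsa and Farsb. This rule found 37 of the 25700 genes with deposited counts: 20 encode cytosolic enzymes and 17, with symbols that end in 2, encode mitochondrial ones. All 37 had enough counts to be tested, among 12279 genes that did.

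There were 15 RNA sequencing libraries, 3 in each of 5 groups. The wild type (WT) and a line given in the labels as MIGA2 depleted (MIGA2-KO) were each taken at day 0 and day 6. MIGA2 (mitoguardin 2) sits in the outer membrane of mitochondria. A line with overexpressed MIGA2-GFP, a fusion to green fluorescent protein, was taken at day 6 and not at day 0. Confluent cultures of all 5 groups were held for a further interval, and day 0 is the moment when medium with dexamethasone, IBMX and insulin was added. That medium was later replaced by medium with insulin alone and then by plain serum medium. The sources used here do not give how the MIGA2-KO and MIGA2-GFP lines were made, or whether each is 1 clone. The comparisons address gene expression over the course of fat cell formation and its dependence on the amount of MIGA2.

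Each synthetase recognises 1 amino acid and its tRNAs, and cells keep separate sets of enzymes for the cytosol and for the ribosomes inside mitochondria, all encoded in the nucleus. Kars and Gars are exceptions that supply both compartments from a single gene, and there is no separate mitochondrial glutaminyl enzyme, since mitochondria charge that tRNA with glutamate through Ears2 and then amidate it. Several cytosolic enzymes sit in a large multisynthetase complex (Eprs, Iars, Lars, Mars, Qars, Rars, Kars and Dars), and many cytosolic synthetase genes are textbook targets of ATF4, the transcription factor that answers amino acid shortage. Mitochondrial mass and respiratory capacity are known to grow as preadipocytes become fat cells.

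Library totals ran from 10748668 to 26003871 counts. The summed level of 12 adipocyte markers went from 700 to 820 CPM in day 0 WT libraries to 44400 to 59100 in day 6 ones, where CPM are counts divided by the TMM-scaled library total and multiplied by 1e+06. The range was 1160 to 1200 CPM before and 9770 to 15500 after differentiation for MIGA2-KO, and 30300 to 32300 for MIGA2-GFP. The 10 preadipocyte markers summed to 16200 to 20900 CPM in WT at day 0 and 5330 to 5780 at day 6. For MIGA2-KO the ranges were 14300 to 15900 and 10900 to 18700, and for MIGA2-GFP 5850 to 6160. Of the markers of other cell types, Ptprc (blood cells), Myod1 (muscle), Cldn5 (endothelium), Epcam and Cdh1 (epithelium) were at 0 in every library, but others on these lists were not. The 8 macrophage markers summed to 87.3 to 123 CPM at day 0 and 23.4 to 43.1 at day 6 over all lines, and Lyz2 gave most of the sum at day 0. The 7 endothelial markers summed to at most 3.11 CPM in any library. The 6 epithelial markers summed to at most 0.535 CPM at day 0 and to 6.42 to 11.1 in WT, 0.784 to 2.17 in MIGA2-KO and 3.89 to 4.87 in MIGA2-GFP at day 6. The 8 muscle markers, mostly Des elsewhere, reached 65.2 CPM in MIGA2-KO day 6 replicate 3, which held Ckm at 16.2, Acta1 at 22.6 and Ttn at 11 CPM against at most 1.36 for any of the 3 in the other 14 libraries. The part of these cell types in the results was not tested. Counts of synthetase genes with that library left out are given for MIGA2-KO over time and for MIGA2-KO against WT at day 6. For the difference in change over time they are given for the mitochondrial enzymes. Counts of the other gene lists are given with all 15 libraries only. Miga2 mRNA was at 926, 74.5 and 70.02 CPM in the 3 MIGA2-KO libraries of day 6, against 145 to 182 in WT at day 6, and the first of these, the library labelled MIGA2-KO day 6 replicate 1, goes against its label. At day 0 Miga2 was at 17.2, 21.4 and 22.6 CPM in MIGA2-KO and 15.6, 17.8 and 13.6 in WT, so its mRNA was not lower in the MIGA2-KO libraries (log2 fold change 0.38 ± 0.71 SE, adjusted p = 0.708, edgeR). In MIGA2-GFP it was at 166, 155 and 158.5 CPM, within the range of WT at day 6 (log2 fold change -0.02 ± 0.67 SE, adjusted p = 0.985, edgeR), so the counts for Miga2 do not show the overexpression in the label, and no source used here says whether reads of the construct were counted. Replicate 1 of WT at day 0 and of WT at day 6 also stood apart from the other pair of its group. Counts of synthetase genes are therefore given with and without these 3 libraries. Within the WT groups, deviations from the group mean went with GC content (correlation across genes -0.58 to 0.43) and log transcript length (-0.59 to 0.51), while in the other groups both lay between -0.13 and 0.12. For length, WT day 0 replicate 1 (-0.59) lay with WT day 6 replicates 2 and 3 (both -0.31). WT day 6 replicate 1 (0.47) lay with WT day 0 replicates 2 and 3 (0.44 and 0.51). Leaving out both replicate 1 libraries puts each WT group on a single side of this pattern. Counts without the 3 libraries therefore cannot separate it from the change over time in WT.

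Per kilobase of exon, the median cytosolic synthetase mRNA was more abundant than the median mitochondrial one in all 5 groups. The median cytosolic enzyme stood at 18.7 CPM per kb in WT at day 0 and 19.7 at day 6, 16.9 and 16.4 in MIGA2-KO, and 19.1 in MIGA2-GFP. The median mitochondrial enzyme stood at 2.5 in WT at day 0 and 5.51 at day 6, 2.56 and 3.05 in MIGA2-KO, and 5.91 in MIGA2-GFP. Gars, the glycyl enzyme of both compartments, was the most abundant cytosolic member per kb in WT at day 6, at 99.9, and Cars, the cysteinyl enzyme, the least abundant, at 5.64. Among the mitochondrial enzymes, Lars2 (leucyl) reached 69.1 CPM per kb in that group, and the next was Iars2 (isoleucyl) at 16.9.

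The summed mRNA of the 16 mitochondrial enzymes other than Lars2 had little spread within a group. It was 263, 246 and 250.5 CPM in the 3 WT libraries of day 0 and 516, 524 and 542 at day 6. It was 259, 255 and 262 CPM in MIGA2-KO at day 0 and 349, 340.2 and 344 at day 6, and 507, 503 and 508 in MIGA2-GFP. The MIGA2-KO libraries thus lay within the WT range at day 0, and at day 6 every MIGA2-KO library was below every WT and MIGA2-GFP library. The small spread of the sum does not hold for each member. In WT at day 6 Iars2 was at 181.7, 133.9 and 134.9 CPM, while Cars2 was at 21.4, 31.7 and 36.5, the opposite order for replicate 1. Cytosolic enzymes summed to 3128, 2821 and 2790 CPM in the day 0 WT libraries, and 2288, 2516 and 2483 in those of day 6. For MIGA2-KO the sums were 2160, 2224 and 2212 CPM before and 2040, 1799 and 1766 after differentiation, and for MIGA2-GFP 2136, 2128 and 2143. No test was made on these sums. In bulk RNA, fewer cells of a type and less RNA per cell cannot be told apart, and at day 6 both the mitochondrial sum and the adipocyte marker sum above were lower in MIGA2-KO than in WT or MIGA2-GFP. The order of WT and MIGA2-GFP depended on the scaling: with CPM of raw library totals, the mitochondrial sum was 442.5 to 462 in WT and 489.6 to 497 in MIGA2-GFP. With that scaling the cytosolic sums of day 6 were 2048, 2126 and 2080 in WT and 2142, 1797 and 1798 in MIGA2-KO. They were 2064, 2073 and 2095 in MIGA2-GFP, so both lines overlapped WT. The part of cell composition in the sums was not tested.

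**Figure D1:**
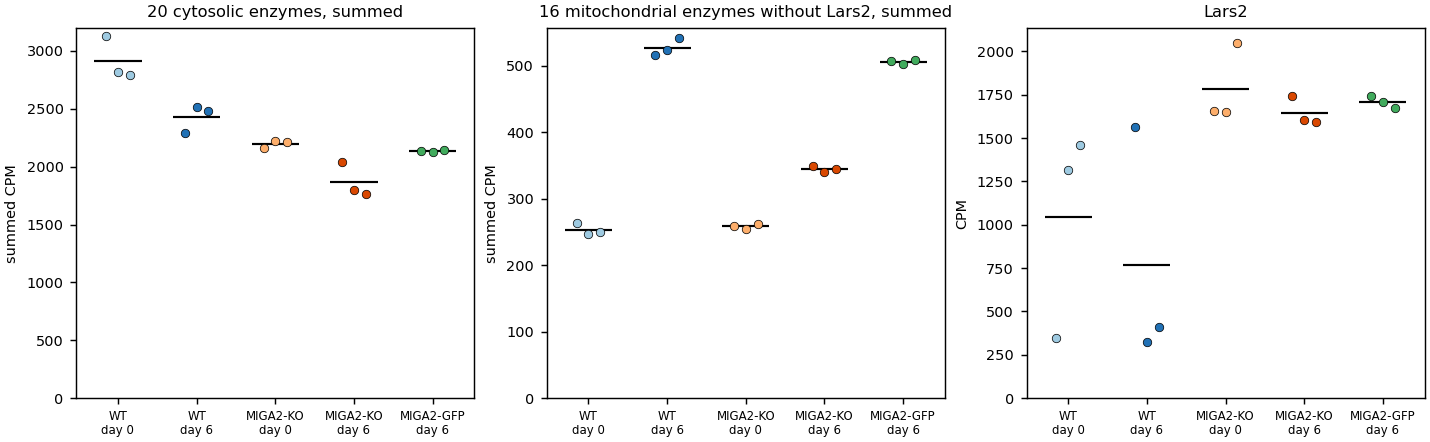
Summed CPM of the 20 cytosolic enzymes (left) and of 16 mitochondrial enzymes (middle), and CPM of Lars2 (right), in each of 15 libraries (points, replicates 1 to 3 from left to right) with the group mean (line). The mitochondrial sum is 516 to 542 in WT at day 6 and 340.2 to 349 in MIGA2-KO at day 6, while Lars2 spans 325 to 1564 CPM within WT at day 6.

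Lars2 was left out of that sum because its level differed widely between libraries of the same WT group. It was at 349, 1319 and 1460 CPM in WT at day 0 and 1564, 325 and 409.7 at day 6, so each WT group held libraries at both levels and the groups overlapped. In the other groups it was at 1655, 1649 and 2048 CPM (MIGA2-KO, day 0), 1744, 1602 and 1594 (MIGA2-KO, day 6) and 1745, 1709 and 1676 (MIGA2-GFP). It was called in none of the 6 comparisons. Without the 3 libraries that stood apart it was called in 5, with log2 differences of -1.90 over time in WT, 0.36 and 2.14 for MIGA2-KO against WT at day 0 and day 6, 2.21 for MIGA2-GFP against WT, and 1.77 for the difference in change over time. The values for Lars2 therefore rest on which WT libraries are used.

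During differentiation of WT cells, 14 of 17 mitochondrial synthetase genes rose, 1 fell and 2 did not pass the test. Of all genes tested 31.7% were called higher and 33.1% lower in this comparison (adjusted p under 0.05). The median log2 change of the mitochondrial enzymes was 1.03, against -0.04 over all genes tested and -0.08 over the cytosolic enzymes. Ears2, Tars2 and Cars2, for glutamate, threonine and cysteine, changed most. Without the 3 libraries that stood apart, 15 mitochondrial enzymes were called higher and 2 lower. In that setting the length pattern described above falls together with day in WT.

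Ears2 was at 7.88, 4.54 and 4.89 CPM in the WT libraries of day 0 and 18.8, 24.9 and 27.4 at day 6, every later library above every earlier one (log2 fold change 2.04 ± 0.19 SE, adjusted p = 2.84e-07, edgeR, where SE is the standard error). Tars2 went from 21.1, 14.8 and 14.8 to 44.1, 57 and 59 CPM, again without overlap (log2 fold change 1.66 ± 0.15 SE, adjusted p = 1.52e-07, edgeR). Cars2 went from 12.8, 10.4 and 7.71 to 21.4, 31.7 and 36.5 CPM (log2 fold change 1.54 ± 0.21 SE, adjusted p = 1.19e-05, edgeR). Within each of these 3 genes, replicate 1 was the highest library at day 0 and the lowest at day 6. Rars2 (arginyl) was at 16.9, 12.4 and 14.9 and then 34.3, 36.9 and 36.1 CPM (log2 fold change 1.28 ± 0.13 SE, adjusted p = 7.12e-07, edgeR). Yars2 (tyrosyl) was at 13, 9.66 and 9.65 and then 20.8, 25.6 and 25.7 CPM (log2 fold change 1.16 ± 0.14 SE, adjusted p = 4.97e-06, edgeR). The groups did not overlap for these genes. Log2 changes of 8 more mitochondrial genes that passed were 1.10 for Nars2 (asparaginyl), 1.04 for Iars2, 1.03 for Vars2 (valyl), 0.92 for Aars2 (alanyl), 0.83 for Fars2 (phenylalanyl), 0.70 for Mars2 (methionyl), 0.64 for Hars2 (histidyl) and 0.44 for Pars2 (prolyl). Under a correction for GC content and length, Mars2 moved to 1.29. The call of Pars2 was lost when WT day 0 replicate 2 or 3, or replicate 2 of WT at day 6, was left out (log2 changes 0.34 to 0.42, adjusted p 0.0546 to 0.0836, edgeR).

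Wars2, the mitochondrial tryptophanyl enzyme, went the other way in WT. It was at 9.43, 13.2 and 12.6 CPM at day 0 and 7.87, 7.31 and 5.05 at day 6, without overlap (log2 fold change -0.80 ± 0.19 SE, adjusted p = 0.00217, edgeR). Sars2 (seryl), the other mitochondrial member besides Lars2 that did not pass, was at 6.79, 5.05 and 3.31 and then 3.44, 5.75 and 7.57 CPM, with overlapping groups (log2 fold change 0.14 ± 0.29 SE, adjusted p = 0.675, edgeR). Without the 3 libraries that stood apart, Sars2 was called higher at a log2 change of 0.67.

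Cytosolic enzymes moved in both directions during WT differentiation: 4 of 20 rose, 6 fell and 10 did not pass. Neither count exceeds the share over all genes tested, which was 31.7% higher and 33.1% lower. Aars (alanyl) fell most. It was at 604, 570.1 and 520.3 CPM at day 0 and 225, 275 and 287 at day 6, less than the lowest day 0 library in each case (log2 fold change -1.10 ± 0.13 SE, adjusted p = 2.14e-06, edgeR). Sars (seryl) was at 464, 344 and 311.5 and then 163, 224 and 222 CPM, with replicate 1 highest at day 0 and lowest at day 6 (log2 fold change -0.88 ± 0.14 SE, adjusted p = 7.09e-05, edgeR). Nars (asparaginyl) went from 214, 209 and 227 to 129, 115 and 125 CPM (log2 fold change -0.82 ± 0.10 SE, adjusted p = 3.73e-06, edgeR). Tars (threonyl) had the smallest SE of these 4, at 121, 128 and 125 and then 85.7, 84.7 and 86.2 CPM (log2 fold change -0.54 ± 0.07 SE, adjusted p = 1.3e-05, edgeR). These groups did not overlap. Cars (-0.48) and Lars, the leucyl enzyme (-0.33), also passed as lower.

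Of the cytosolic enzymes that rose in WT, Mars, the methionyl enzyme that charges initiator tRNA, changed most. It was at 64.2, 60.4 and 63.3 CPM at day 0 and 107, 129 and 134 at day 6 (log2 fold change 0.98 ± 0.09 SE, adjusted p = 3.54e-07, edgeR). Farsb, the beta subunit of the phenylalanyl enzyme, was at 54.6, 40.5 and 45.1 and then 72.5, 89.4 and 81.2 CPM (log2 fold change 0.80 ± 0.12 SE, adjusted p = 2.48e-05, edgeR). Its partner Farsa, the alpha subunit, was at 65.4, 52.9 and 48.1 and then 66.9, 70.9 and 74.1 CPM (log2 fold change 0.35 ± 0.13 SE, adjusted p = 0.0343, edgeR). The groups stayed apart for all 3, narrowly for Farsa. Qars (glutaminyl, 0.29) was the other one that passed, with groups that overlapped. Not passing were Dars (aspartyl, 0.28), Gars (0.25), Vars (valyl, 0.16), Wars (tryptophanyl, 0.13), Yars (tyrosyl, -0.05), Hars (histidyl, -0.06), Kars (lysyl, -0.10), Iars (isoleucyl, -0.11), Eprs, which joins the glutamyl and prolyl enzymes in 1 protein (-0.11), and Rars (arginyl, -0.16). The calls of Farsa and Qars were lost when replicate 2 or 3 of either WT day was left out (adjusted p 0.0525 to 0.147, edgeR), which left 2 cytosolic genes called higher without WT day 0 replicate 2. Cars lost its call without replicate 1 of either day or WT day 6 replicate 3, and Lars without replicate 1 of day 0 or replicate 3 of day 6 (adjusted p 0.057 to 0.091, edgeR). The GC and length correction left Lars at -0.15, not called, and Eprs at 0.31, called higher, and without the 3 libraries that stood apart 7 cytosolic enzymes were called higher and 8 lower.

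**Figure D2:**
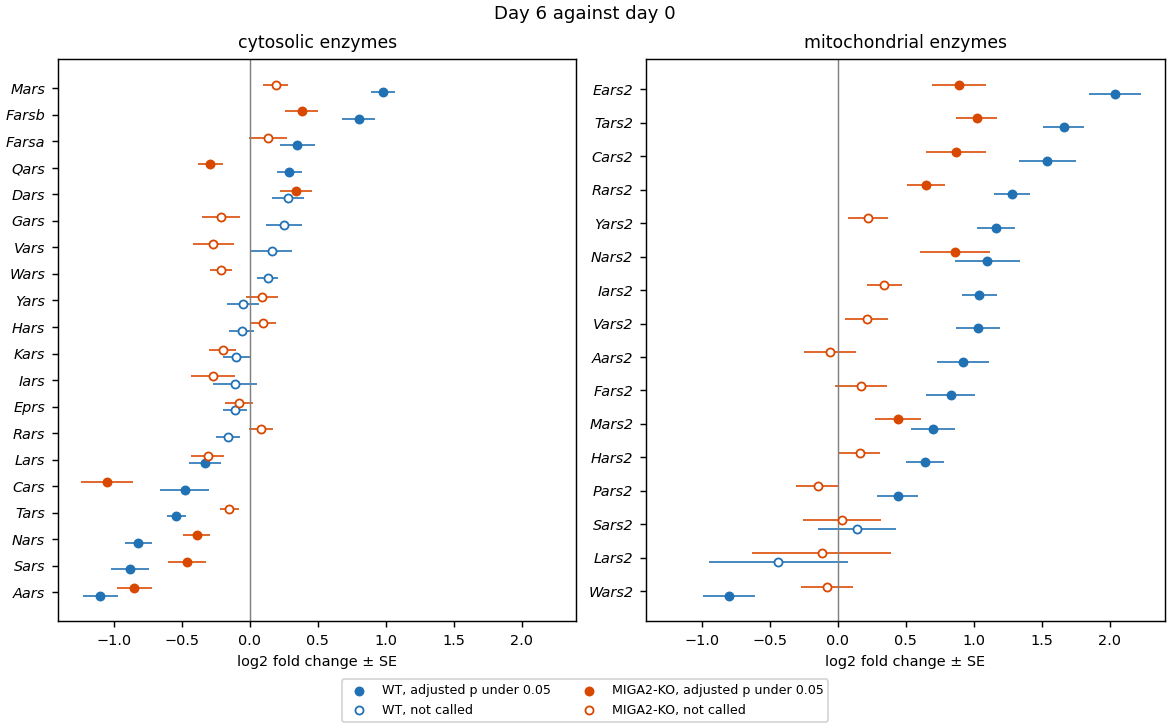
Log2 fold change from day 0 to day 6 with its standard error for 20 cytosolic (left) and 16 mitochondrial (right) synthetase genes, in WT (blue) and MIGA2-KO (orange). Filled points have an adjusted p under 0.05, and in WT 13 of the mitochondrial genes shown lie at 0.44 or above with a filled point.

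Setting the enzymes for the same amino acid against each other gave 18 pairs, with Eprs set against both Ears2 and Pars2, and Farsa and Farsb both against Fars2. In WT the mitochondrial enzyme changed more upward than its cytosolic partner in 15 of 18 pairs, with a median difference in log2 change of 1.03. The widest pair was threonine, where Tars was at -0.54 and Tars2 at 1.66. Alanine followed the same form, with Aars at -1.10 and Aars2 at 0.92. In 4 pairs the partners were called in opposite directions and in 3 in the same direction. The pairs below 0 were leucine, methionine and tryptophan. In MIGA2-KO the difference was above 0 in 16 of 18 pairs, with a median of 0.48. Members share libraries, so these counts describe the genes and carry no test.

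**Figure D3:**
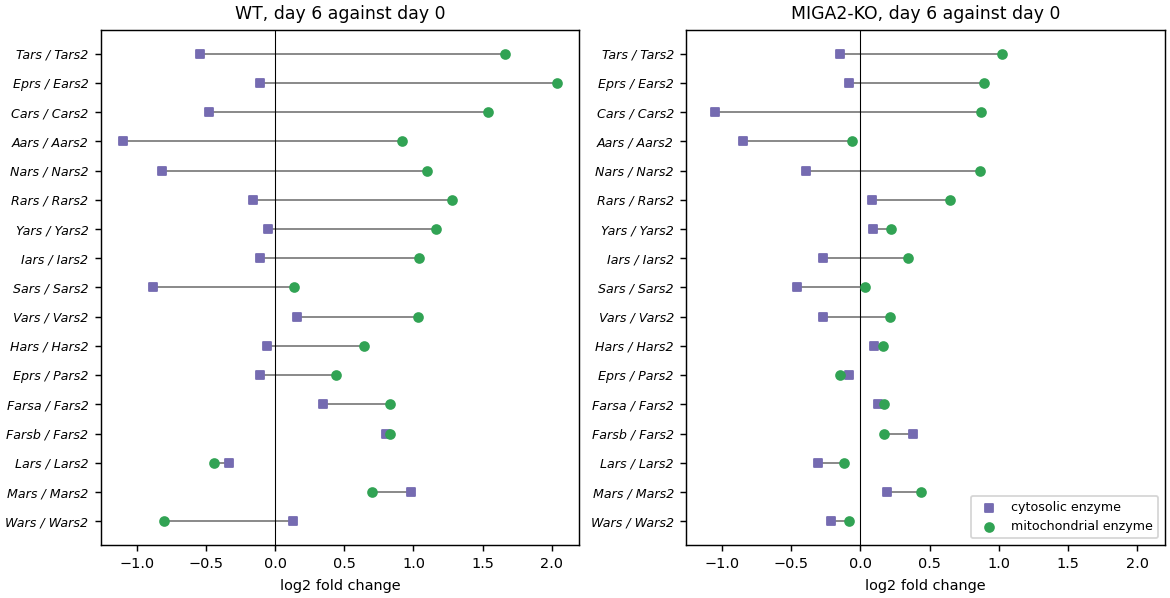
Log2 fold change from day 0 to day 6 of the cytosolic (squares) and mitochondrial (circles) enzyme for the same amino acid in 17 pairs, in WT (left) and MIGA2-KO (right), with pairs in the order of their difference in WT. The circle lies to the right of the square in 14 of the 17 in WT and in 15 in MIGA2-KO.

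Promoters from RefSeq (GRCm38.p6, 250 bases before to 50 after the start) were available for 27 of the 37 genes and were searched on both strands for TGATGNAA, a form of the element bound by ATF4 with C/EBP partners. It was found in 5 of 13 cytosolic genes (Aars, Gars, Iars, Tars and Yars) and in 0 of 14 mitochondrial genes. Of 32851 promoters of that length in the table, 3.97% held it. The E-box CACGTG was found in 4 of 13 cytosolic genes (Aars, Farsb, Iars and Tars) and 1 of 14 mitochondrial genes (Ears2), and in 7.15% of all promoters. The interferon-stimulated response element was found in Qars alone of the 27, and in 3.44% of all promoters. No match of one motif overlapped a match of another. The 250 bases before the start are shown for Aars and Tars, which fell in WT and hold the first motif. They are also shown for Tars2, which rose and does not hold it there. The annotated span of Tars2 (GENCODE) begins upstream of this RefSeq start, at chr3:95760206, and that end was not searched. Aars holds another match 10 bases after the start, outside the stretch shown. Windows of 30 bases around the match are shown for Gars, Iars and Yars. Matches to TGATGNAA or its reverse complement are in capitals.
Aars, chr8:111033592-111033841, forward strand: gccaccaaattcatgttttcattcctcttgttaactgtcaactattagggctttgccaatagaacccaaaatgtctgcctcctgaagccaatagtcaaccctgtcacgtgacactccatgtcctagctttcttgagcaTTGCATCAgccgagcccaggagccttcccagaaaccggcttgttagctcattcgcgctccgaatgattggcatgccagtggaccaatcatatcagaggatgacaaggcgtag
Tars, chr15:11399659-11399908, reverse strand: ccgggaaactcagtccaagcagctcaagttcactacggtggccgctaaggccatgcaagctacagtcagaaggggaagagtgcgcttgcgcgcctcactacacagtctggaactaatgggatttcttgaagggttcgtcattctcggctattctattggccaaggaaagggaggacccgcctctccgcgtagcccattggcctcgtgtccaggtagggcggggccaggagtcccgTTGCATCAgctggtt
Tars2, chr3:95754978-95755227, reverse strand: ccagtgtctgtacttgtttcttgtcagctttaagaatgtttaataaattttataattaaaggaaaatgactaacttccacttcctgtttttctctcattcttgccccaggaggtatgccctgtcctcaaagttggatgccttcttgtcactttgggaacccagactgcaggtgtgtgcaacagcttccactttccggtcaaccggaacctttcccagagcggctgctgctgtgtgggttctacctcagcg
Gars, chr6:55037960-55037989, forward strand: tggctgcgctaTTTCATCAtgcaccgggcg
Iars, chr13:49682126-49682155, forward strand: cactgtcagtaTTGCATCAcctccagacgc
Yars, chr4:129189895-129189924, forward strand: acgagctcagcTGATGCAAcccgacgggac
Of the 5 genes with a match, Aars and Tars passed as lower in WT over time, and Gars, Iars and Yars did not pass.

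Of the 13 cytosolic synthetases often listed as ATF4 targets, 1 passed as higher (Mars) and 6 as lower during WT differentiation, with a median log2 change of -0.11. Of the 7 not usually listed, 3 passed as higher (Farsa, Farsb and Qars) and 0 as lower, with a median of 0.28. Among 26 other ATF4 targets, 11 passed as higher and 6 as lower in WT. Over all genes tested 31.7% passed as higher and 33.1% as lower, and these lists are small. Cebpg, a partner of ATF4, was at 1.87 and Mthfd2, a mitochondrial folate enzyme, at 2.51, while Aldh18a1, of proline synthesis, was at -1.80 and Sesn2, a stress-induced regulator of growth signalling, at -1.47 (adjusted p = 5.55e-10, 5.44e-09, 3.06e-09 and 8.77e-09, edgeR). The 8 complex-bound synthetases, with 2 higher and 1 lower, had a median of -0.11.

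In MIGA2-KO cells, 7 of 17 mitochondrial enzymes rose between day 0 and day 6, 0 fell, and 10 did not pass. Of all genes tested 23.3% were called higher and 21.0% lower. The median log2 change of the mitochondrial enzymes was 0.22, against 0.02 over all genes and -0.20 over the cytosolic enzymes. Cytosolic enzymes counted 2 higher, 5 lower and 13 that did not pass.

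Tars2 was at 15.4, 13.7 and 14.8 CPM in MIGA2-KO at day 0 and 28.8, 31.5 and 28.6 at day 6 (log2 fold change 1.02 ± 0.15 SE, adjusted p = 6.51e-05, edgeR). Ears2 was at 6.58, 6.96 and 7.30 and then 12.8, 13 and 12.7 CPM (log2 fold change 0.89 ± 0.20 SE, adjusted p = 0.00199, edgeR). For both genes each day 6 library was above each day 0 library, and replicates were close at both days. Cars2 (0.87), Nars2 (0.86), Rars2 (0.65) and Mars2 (0.44) also passed. The remaining mitochondrial values were 0.34 for Iars2, 0.22 for Yars2, 0.21 for Vars2, 0.17 for Fars2, 0.16 for Hars2, 0.03 for Sars2, -0.06 for Aars2, -0.08 for Wars2, -0.12 for Lars2 and -0.15 for Pars2. With the library labelled MIGA2-KO day 6 replicate 1 left out, 5 mitochondrial enzymes were called: Nars2 stood at a log2 change of 0.49 (adjusted p = 0.108, edgeR) and Mars2 stood at 0.45 (adjusted p = 0.0745, edgeR). Nars2 was at 10.4, 5.11 and 6.01 CPM in the 3 libraries of day 6, so it was highest in the one left out. Nars2 also lost its call without MIGA2-KO day 0 replicate 3 (0.76, adjusted p = 0.0624, edgeR), and Mars2 lost its call in 10 of the 15 leave-one-out fits (adjusted p up to 0.137, edgeR).

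Among cytosolic enzymes in MIGA2-KO, Cars was at 37.8, 44 and 41.7 CPM at day 0 and 28, 16.3 and 15.3 at day 6 (log2 fold change -1.05 ± 0.19 SE, adjusted p = 0.000366, edgeR). Aars was at 262.5, 269.5 and 268 and then 179, 138 and 128 CPM (log2 fold change -0.85 ± 0.13 SE, adjusted p = 6.65e-05, edgeR). In both genes the library labelled MIGA2-KO day 6 replicate 1 lay above the other pair of its group and below all day 0 libraries. Sars was at 289.9, 307 and 301 and then 222, 215 and 214 CPM (log2 fold change -0.46 ± 0.14 SE, adjusted p = 0.0151, edgeR). Nars (-0.39) and Qars (-0.29) were lower as well. Farsb was at 44.9, 50.01 and 46.9 and then 62.4, 59.5 and 63 CPM (log2 fold change 0.38 ± 0.12 SE, adjusted p = 0.0147, edgeR). Dars was at 72.2, 70.2 and 72.3 and then 93.4, 85.8 and 92.8 CPM (log2 fold change 0.34 ± 0.12 SE, adjusted p = 0.034, edgeR). The other 13 had log2 changes from -0.31 (Lars) to 0.19 (Mars). With the library labelled MIGA2-KO day 6 replicate 1 left out, 7 cytosolic enzymes were called lower, and without all 3 libraries that stood apart 3 were called higher, 11 lower and 8 mitochondrial enzymes higher. With MIGA2-KO day 6 replicate 3, which held muscle transcripts, left out, 1 cytosolic enzyme was called higher, 4 lower and 6 mitochondrial ones higher. Dars lost its call without MIGA2-KO day 0 replicate 1, 2 or 3 or day 6 replicate 1 or 3, and Qars without day 0 replicate 1 or 3 or day 6 replicate 2 or 3 (adjusted p 0.059 to 0.0906, edgeR). Farsb lost it without MIGA2-KO day 0 replicate 1 (adjusted p = 0.0666, edgeR) and Sars without day 0 replicate 2 (adjusted p = 0.051, edgeR), while Dars was at 0.17 and not called under the GC and length correction.

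The change over time itself differed between the lines for 12 synthetase genes, tested as the change in MIGA2-KO minus the change in WT. Of all genes tested 13.7% were called higher and 13.6% lower by this test. Of 17 mitochondrial enzymes, 7 were called lower, that is with a less positive change in MIGA2-KO, and 0 higher. The median difference was -0.63 for the mitochondrial enzymes, -0.04 for the cytosolic ones and 0.02 over all genes. The difference was below 0 for 15 of 17 mitochondrial genes.

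Ears2 had the widest difference, as it rose by 2.04 in WT and 0.89 in MIGA2-KO (difference -1.16 ± 0.27, adjusted p = 0.00594, edgeR). Aars2 was at 13.4, 11 and 8.57 CPM and then 15.6, 20.2 and 26.6 in WT, and 11.7, 11.4 and 12 and then 10.3, 12.5 and 10.8 in MIGA2-KO (difference -0.98 ± 0.27, adjusted p = 0.0139, edgeR). Every day 6 WT library was thus above the other 9 of these libraries, and the MIGA2-KO days overlapped. Yars2 was at 10.8, 10.6 and 10.4 and then 11.6, 12 and 13.5 CPM in MIGA2-KO (difference -0.94 ± 0.21, adjusted p = 0.00382, edgeR). Vars2 (-0.82), Iars2 (-0.70), Tars2 (-0.64) and Rars2 (-0.63) were also called. Calls of Tars2 and Rars2 were lost in 8 and 6 of the 15 leave-one-out fits (adjusted p 0.0536 to 0.0874, edgeR). The number of mitochondrial enzymes called lower was 7 with the library labelled MIGA2-KO day 6 replicate 1 left out, 5 without WT day 0 replicate 2, 10 without WT day 0 replicate 1, 5 without MIGA2-KO day 6 replicate 3 and 11 without the 3 libraries that stood apart.

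Cytosolic genes went both ways in this test. Mars, which rose in WT, was at 74.2, 79.7 and 74.3 and then 81.8, 90.1 and 88.7 CPM in MIGA2-KO (difference -0.79 ± 0.13, adjusted p = 0.000566, edgeR). Qars was at 128.5, 110.4 and 114 and then 128, 152.5 and 149 CPM in WT, and 135, 130.1 and 137 and then 116, 109 and 104 in MIGA2-KO, so that it was called higher in WT and lower in MIGA2-KO (difference -0.58 ± 0.13, adjusted p = 0.00504, edgeR). Wars was at 54.1, 54.7 and 51.5 and then 57.1, 60.5 and 57.7 CPM in WT, and 47.1, 46.1 and 50.8 and then 41.7, 42.4 and 40.5 in MIGA2-KO (difference -0.34 ± 0.12, adjusted p = 0.0431, edgeR). Of these 3, Wars was called in only 2 of the 15 leave-one-out fits. The difference was above 0 for Nars and Tars. Nars was at 158, 161 and 165 and then 142, 113 and 115 CPM (difference 0.43 ± 0.14, adjusted p = 0.0326, edgeR), and Tars at 96.9, 99.2 and 101 and then 89, 89.97 and 88.6 (difference 0.39 ± 0.10, adjusted p = 0.012, edgeR). Under the GC and length correction Tars (0.22) and Wars (-0.19) were not called, and Nars lost its call in 6 of the 15 leave-one-out fits (adjusted p up to 0.0816, edgeR).

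**Figure D4:**
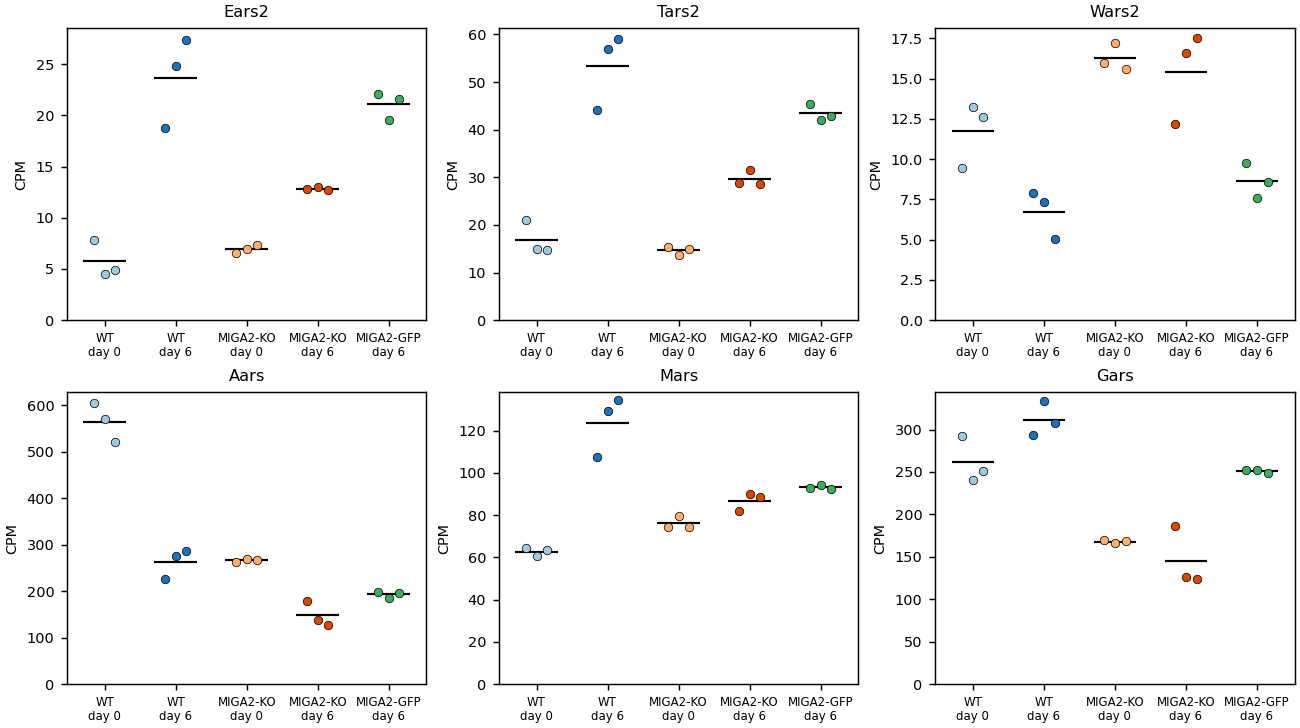
CPM of Ears2, Tars2, Wars2, Aars, Mars and Gars in each of 15 libraries (points, replicates 1 to 3 from left to right) with the group mean (line). Ears2 and Tars2 are highest in the day 6 WT and MIGA2-GFP libraries, Wars2 is at 5.05 to 9.74 CPM in the day 6 WT and MIGA2-GFP libraries and at 12.2 or above in every MIGA2-KO library, and Aars is highest at day 0 in WT.

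Before differentiation, MIGA2-KO cells had lower mRNA of 9 of 20 cytosolic enzymes than WT cells, and 1 was higher. Of the 17 mitochondrial enzymes 1 was higher and 2 lower. Of all genes tested 16.1% were called higher and 17.7% lower. The median log2 difference was -0.33 for cytosolic and -0.09 for mitochondrial enzymes, and -0.03 over all genes. Aars stood at 262.5 to 269.5 CPM in MIGA2-KO against 520.3 to 604 in WT (log2 fold change -1.08 ± 0.13 SE, adjusted p = 3.2e-05, edgeR). Farsa was at 31.7, 29.97 and 29.1 CPM against 65.4, 52.9 and 48.1 in WT (log2 fold change -0.87 ± 0.14 SE, adjusted p = 0.000348, edgeR). Kars was at 90.3, 94 and 90.8 CPM against 174, 144.5 and 137 (log2 fold change -0.73 ± 0.10 SE, adjusted p = 9.58e-05, edgeR). No library of the lines overlapped for these genes. Gars (-0.64), Lars (-0.58), Yars (-0.52), Hars (-0.43), Nars (-0.42) and Tars (-0.33) were the other cytosolic genes called lower, and Mars (0.28) was called higher. The cytosolic genes not called ran from -0.33 (Cars) to 0.25 (Dars).

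Of the mitochondrial enzymes 14 of 17 did not pass at day 0. The lines are compared by their labels here, since Miga2 itself did not pass at this time. Rars2 was at 10.4, 8.72 and 10.1 CPM in MIGA2-KO against 16.9, 12.4 and 14.9 in WT (log2 fold change -0.60 ± 0.14 SE, adjusted p = 0.00437, edgeR). Cars2 was at 7.46, 5.28 and 6.16 against 12.8, 10.4 and 7.71 CPM (log2 fold change -0.71 ± 0.22 SE, adjusted p = 0.0227, edgeR). Iars2 was at 92.5, 93.6 and 98.1 against 59.8, 74.5 and 85.5 CPM (log2 fold change 0.37 ± 0.13 SE, adjusted p = 0.044, edgeR). The lines did not overlap in these 3 genes. Wars2 was at 16, 17.2 and 15.6 CPM in MIGA2-KO, above each WT library, and did not pass (log2 fold change 0.47 ± 0.18 SE, adjusted p = 0.0621, edgeR). Cars2 lost its call without MIGA2-KO replicate 2 or 3 or WT replicate 1 (adjusted p 0.0711 to 0.102, edgeR), Mars without any of the 3 MIGA2-KO libraries or WT replicate 2 (0.0612 to 0.116, edgeR) and Iars2 in 9 of the 15 leave-one-out fits (up to 0.153, edgeR). Hars was at -0.19 and not called under the GC and length correction, and without the 3 libraries that stood apart 4 cytosolic and 4 mitochondrial enzymes were called higher and 11 and 3 lower.

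At day 6, 12 of 20 cytosolic and 12 of 17 mitochondrial enzymes were called lower in MIGA2-KO than in WT. In each class 1 was called higher. These calls use TMM scaling. With CPM of raw totals the cytosolic sums overlapped: 2142, 1797 and 1798 in MIGA2-KO, 2048, 2126 and 2080 in WT. Of all genes tested 29.2% were called higher and 31.5% lower. The median log2 difference was -0.85 for mitochondrial and -0.38 for cytosolic enzymes, against -0.01 over all genes. The mitochondrial difference lay below that of the cytosolic partner in 14 of 18 pairs, with a median of -0.47. Adipocyte markers, the sums of which are given above, were lower in MIGA2-KO for 12 of 12 genes. In MIGA2-GFP 7 of 12 were lower than in WT and 0 higher, with 18.9% lower over all genes. Of 9 preadipocyte markers tested, 4 were higher and 2 lower in MIGA2-KO than in WT. The part of these markers in the differences was not tested.

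Among mitochondrial enzymes at day 6, Cars2 was at 11.9, 11.1 and 11.4 CPM in MIGA2-KO against 21.4, 31.7 and 36.5 in WT (log2 fold change -1.38 ± 0.21 SE, adjusted p = 7.68e-05, edgeR). Rars2 was at 17.2, 15.2 and 13.5 CPM against 34.3, 36.9 and 36.1 (log2 fold change -1.23 ± 0.13 SE, adjusted p = 3.84e-06, edgeR). Yars2 was at 11.6, 12 and 13.5 CPM against 20.8, 25.6 and 25.7 (log2 fold change -0.96 ± 0.15 SE, adjusted p = 7.35e-05, edgeR). MIGA2-KO libraries lay below WT libraries without overlap in all 3. Vars2 (-0.90), Aars2 (-0.89), Ears2 (-0.88), Fars2 (-0.86), Pars2 (-0.85), Tars2 (-0.85), Hars2 (-0.76) and Iars2 (-0.33) were also called lower. Wars2 was again opposite, at 12.2, 16.6 and 17.5 CPM in MIGA2-KO against 7.87, 7.31 and 5.05 in WT, with the library labelled MIGA2-KO day 6 replicate 1 lowest of its group and still above WT (log2 fold change 1.19 ± 0.20 SE, adjusted p = 0.000148, edgeR). Nars2 (-0.46), Mars2 (-0.35), Sars2 (0.03) and Lars2 (1.10) did not pass. Iars2 lost its call in 11 of the 15 leave-one-out fits (adjusted p up to 0.251, edgeR), and the GC and length correction moved it to -0.74, and Mars2 to -1.28, both called.

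Among cytosolic enzymes at day 6, Gars was at 186, 126 and 124 CPM in MIGA2-KO against 293, 333.5 and 308 in WT (log2 fold change -1.10 ± 0.14 SE, adjusted p = 1.25e-05, edgeR). Farsa was at 40.4, 31.6 and 27.7 CPM against 66.9, 70.9 and 74.1 (log2 fold change -1.09 ± 0.14 SE, adjusted p = 1.55e-05, edgeR). Cars was at 28, 16.3 and 15.3 CPM against 33.1, 40.9 and 37.3 (log2 fold change -0.90 ± 0.19 SE, adjusted p = 0.000957, edgeR). The library labelled MIGA2-KO day 6 replicate 1 was the nearest to WT in each of the 3, and no libraries overlapped. Kars (-0.83), Aars (-0.83), Lars (-0.55), Mars (-0.51), Wars (-0.49), Farsb (-0.40), Qars (-0.39), Yars (-0.38) and Hars (-0.27) were also called lower. Dars was called higher, at 93.4, 85.8 and 92.8 CPM against 89.7, 62.3 and 67.3, with groups that overlapped (log2 fold change 0.31 ± 0.12 SE, adjusted p = 0.0395, edgeR). Vars, Iars, Eprs, Nars, Rars, Tars and Sars lay between -0.22 and 0.10 and did not pass. With the library labelled MIGA2-KO day 6 replicate 1 left out, 12 cytosolic and 12 mitochondrial enzymes were called lower, with MIGA2-KO day 6 replicate 3 left out 10 and 11, and without the 3 libraries that stood apart 14 and 13. Dars lost its call without MIGA2-KO replicate 1 or 3 or WT replicate 2 or 3 (adjusted p 0.0718 to 0.159, edgeR), Yars without MIGA2-KO replicate 2 or 3 or WT replicate 2 or 3 (0.0523 to 0.0592, edgeR), Hars without MIGA2-KO replicate 3 or WT replicate 2 (0.0827 to 0.141, edgeR), and Farsb without WT replicate 2 (0.0576, edgeR). Under the GC and length correction Farsb (-0.13), Yars (-0.13) and Hars (0.15, the opposite direction) were not called.

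MIGA2-GFP cells at day 6 were closer to WT than MIGA2-KO cells were in the mitochondrial sum, at 506 ± 2.77 against 527 ± 13.1 CPM (mean ± SD of 3 libraries) in WT, and above WT, at 492 ± 3.98 against 453 ± 9.71, with CPM of raw totals. Of the cytosolic enzymes 1 was called higher and 8 lower, and of the mitochondrial ones 1 higher and 3 lower. Of all genes tested 16.5% were called higher and 18.9% lower. The median log2 difference was -0.22 for cytosolic and -0.17 for mitochondrial enzymes, and 0.00 over all genes. The comparison uses the same WT libraries as that of MIGA2-KO with WT.

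Kars was at 79.9, 84.3 and 82.5 CPM in MIGA2-GFP against 131, 150 and 144 in WT (log2 fold change -0.79 ± 0.10 SE, adjusted p = 6.99e-05, edgeR). Farsb was at 51.1, 53 and 56.6 CPM (log2 fold change -0.60 ± 0.12 SE, adjusted p = 0.00151, edgeR), below each WT library. Rars was at 67, 68.6 and 70.9 CPM against 95.3, 107 and 93.3 in WT (log2 fold change -0.52 ± 0.09 SE, adjusted p = 0.00099, edgeR), and in MIGA2-KO at day 6 it was at 92.9, 99.2 and 104, a range that overlaps WT. Farsa (-0.49), Yars (-0.47), Aars (-0.44), Mars (-0.41) and Wars (-0.30) were the other cytosolic genes called lower. Eprs was called higher, at 288, 293 and 286 CPM against 246, 246 and 227 (log2 fold change 0.27 ± 0.10 SE, adjusted p = 0.04, edgeR). Gars, which was lowest in MIGA2-KO, was at 252, 253 and 249 CPM in MIGA2-GFP, and its difference from WT did not pass (log2 fold change -0.31 ± 0.13 SE, adjusted p = 0.0864, edgeR).

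Of the mitochondrial enzymes, Pars2 was at 6.15, 5.72 and 4.67 CPM in MIGA2-GFP against 9.22, 9.45 and 8.54 in WT (log2 fold change -0.71 ± 0.16 SE, adjusted p = 0.00359, edgeR). Rars2 was at 23.1, 22.7 and 21.3 CPM (log2 fold change -0.68 ± 0.13 SE, adjusted p = 0.00151, edgeR) and Cars2 at 19.9, 16.9 and 21 CPM (log2 fold change -0.63 ± 0.20 SE, adjusted p = 0.0276, edgeR), each below all WT libraries. Aars2 was called higher, at 31.2, 30.4 and 27.7 CPM against 15.6, 20.2 and 26.6 (log2 fold change 0.52 ± 0.18 SE, adjusted p = 0.0397, edgeR). Iars2, Vars2 and Nars2 were at 0.21, 0.21 and 0.35 and did not pass, and neither did Ears2 (-0.17) or Wars2 (0.35). Among these calls Eprs was lost in 12 and Aars2 in 11 of the 15 leave-one-out fits (adjusted p up to 0.151, edgeR), Cars2 without MIGA2-GFP replicate 1 or 2 or WT replicate 2 or 3 (0.0605 to 0.115, edgeR), and Aars without MIGA2-GFP replicate 2 or WT replicate 2 or 3 (0.0501 to 0.0507, edgeR). The GC and length correction left Eprs at 0.03, Wars at -0.19 and Cars2 at -0.53, none of them called. Without the 3 libraries that stood apart 27 synthetase genes were called. Of these 13 cytosolic and 7 mitochondrial enzymes were lower and the rest higher.

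**Figure D5:**
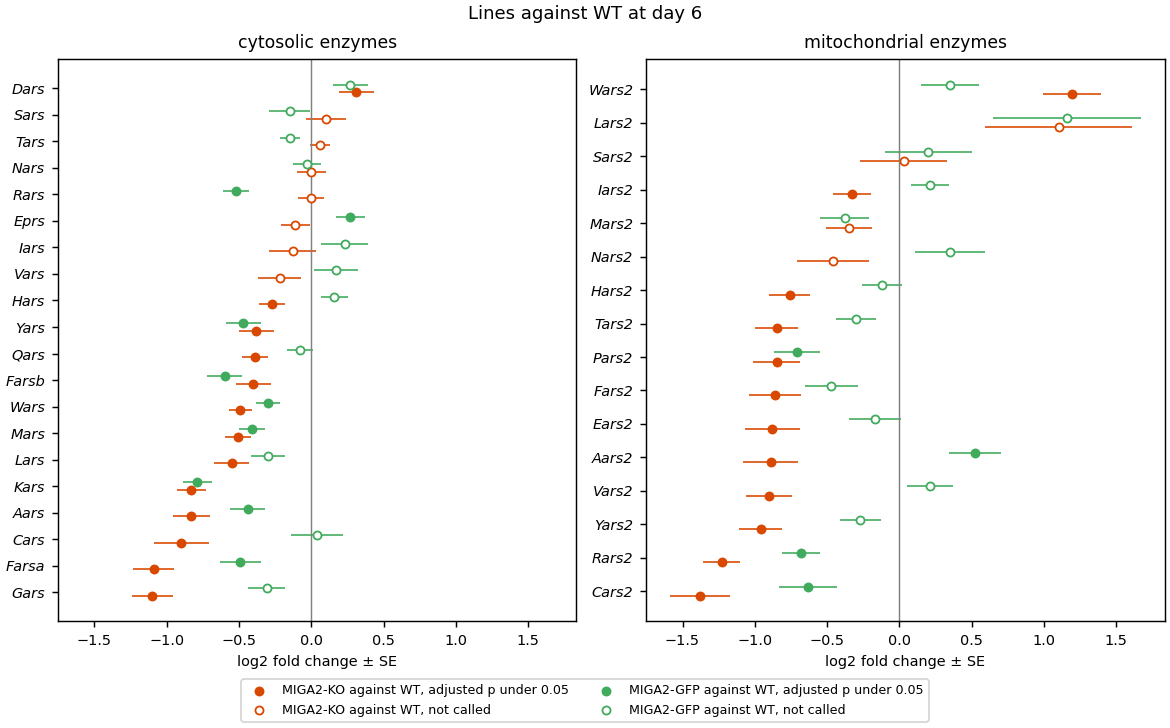
Log2 fold change against WT at day 6 with its standard error for 20 cytosolic (left) and 16 mitochondrial (right) synthetase genes, in MIGA2-KO (orange) and MIGA2-GFP (green). Filled points have an adjusted p under 0.05, and of the genes shown 12 cytosolic and 11 mitochondrial ones are filled and below 0 in MIGA2-KO.

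Genes that act with the mitochondrial synthetases were described from lists of translation factors and tRNA processing enzymes. Their values come from the fit with all 15 libraries and were not repeated with libraries left out. Of 14 mitochondrial translation factors and tRNA amidation genes, 12 rose in WT and 6 in MIGA2-KO, 0 fell in either line, and 11 were lower in MIGA2-KO than in WT at day 6. Over all genes tested, 31.7% were called higher and 33.1% lower over time in WT. The shares were 23.3% and 21.0% in MIGA2-KO, and 31.5% were lower in MIGA2-KO than in WT at day 6. In MIGA2-GFP against WT at day 6, 8 of the 14 were lower and 0 higher. For that comparison 18.9% of all genes were lower and 16.5% higher. Tufm, the elongation factor that delivers charged tRNA to the mitochondrial ribosome, was at 121, 154 and 158.5 CPM in WT and 76, 60.6 and 68.7 in MIGA2-KO at day 6 (log2 fold change -1.08 ± 0.16 SE, adjusted p = 6.46e-05, edgeR). Gfm2, which acts in ribosome recycling, was at 51.4, 51.7 and 47.5 against 25.3, 22.7 and 22.6 CPM (log2 fold change -1.09 ± 0.10 SE, adjusted p = 6.65e-07, edgeR). Their change over time also differed between the lines, by -1.17 and -0.92, the 2 of 14 that passed. By that test 13.6% of all genes were called lower. Mtif3, an initiation factor (-0.81), and Gatb, a subunit of the amidase that completes glutaminyl-tRNA (-0.68), were also lower at day 6.

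Of 12 mitochondrial tRNA maturation genes, 8 rose in WT and 6 in MIGA2-KO, 9 were lower and 1 higher in MIGA2-KO than in WT at day 6, and 5 differed in their change over time, all with the less positive change in MIGA2-KO. Over all genes tested, 31.7% rose in WT and 23.3% in MIGA2-KO, and 13.6% had the less positive change in MIGA2-KO. For MIGA2-KO against WT at day 6 the shares were 31.5% lower and 29.2% higher. In MIGA2-GFP against WT at day 6, 5 of the 12 were lower and 0 higher, with 18.9% lower and 16.5% higher over all genes. Hsd17b10, a subunit of the mitochondrial RNase P, was at 368, 547.5 and 539.9 CPM in WT and 94.6, 99.4 and 99.5 in MIGA2-KO at day 6 (log2 fold change -2.31 ± 0.19 SE, adjusted p = 2.76e-07, edgeR). Elac2, which trims tRNA 3′ ends (-1.25), Trit1, which isopentenylates tRNA (-1.69), and Trmu, which thiolates it (-1.67), passed too (adjusted p = 3.69e-07, 2.86e-06 and 1.24e-05, edgeR). Among 15 scaffold, elongation and synthetase-like genes, 3 were higher and 9 lower in MIGA2-KO at day 6, with a median log2 difference of -0.47. Against that median, Tarsl2, a threonyl-synthetase-like gene (1.06), and Eef2, a cytosolic elongation factor (0.76), were among the 3 higher. Of 26 other ATF4 targets, 0 were higher and 15 lower in MIGA2-KO than in WT at day 6, with Mthfd2 at -3.02 and Psat1, of serine synthesis, at -1.67. Of 13 synthetases often listed as ATF4 targets, 0 were higher and 7 lower in that comparison, and of the 7 others 1 was higher and 5 lower. Interferon-stimulated genes, listed because Wars is a known interferon target, counted 14 of 16 higher in MIGA2-KO than in WT at day 0, where Wars was at -0.15 and did not pass. In that comparison 16.1% of all genes tested were called higher.

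The spans of several synthetase genes, from first to last base with introns included, overlap the span of a neighbour. Whether their exons overlap was not determined. On opposite strands, Hars and Hars2 overlap each other by 198 bases, Mars overlaps Ddit3, a stress-induced transcription factor, by 68, and Ears2 overlaps Ubfd1 by 89. Also on opposite strands, Cars2 overlaps Naxd by 984 bases, Iars2 overlaps Rab3gap2 by 2034, Wars overlaps Wdr25 by 544, Yars overlaps C77080 by 30, and Fars2 overlaps Nrn1 by 920 and Lyrm4 by 115. Aars overlaps Exosc6 on the same strand by 1326 bases. The sources used here do not give the strand setting of the counting. Where exons overlap, the values of these genes may therefore hold reads of the neighbour. The median GC content was 49.8% in the cytosolic and 48.2% in the mitochondrial enzymes, against 49.7% over all genes tested.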

How the data were processed

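RNA of 15 samples was made into stranded TruSeq libraries, per the labels' protocols. The tools named, per the submitters' processing notes, are bcl2fastq 2.19, Trimmomatic, STAR 2.5.4b, featureCounts and edgeR, with genome build GRCm38.p5. What the authors deposited are raw counts of each gene, for 25700 Ensembl identifiers, of which 25587 matched GENCODE M21 (GRCm38). For the strand setting and annotation of the counting: not given in the sources used here. No label says that replicates are separate cultures, and the p-values then reflect spread that may be technical.

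The analysis used edgeR 4.0.16 under R 4.3.3: filterByExpr (minimum count 10, minimum total 15), TMM scaling, and 1 quasi-likelihood fit with a term per group over all 15 libraries (common biological coefficient of variation 15.96%). Tests were two-sided, with Benjamini-Hochberg adjustment over the 12279 genes of a comparison and a threshold of 0.05. SE was taken from the log2 fold change and its F statistic (absolute value over root F). Levels per kb use the union of GENCODE exons. The code was tested on simulated data. Alternatives were RLE scaling, DESeq2 1.42.0, no count filter, a replicate block, offsets for GC content and length, a fit of only the groups compared, and leaving out libraries. The genes and lists were chosen with earlier results of these data known. Counts cover all members, 1 of which is not reported here by itself. The others are named, with library values for those among the 3 largest called changes of a class and direction in a comparison. Of other lists, up to 4 genes with the smallest adjusted p are named.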

Additional observations from a re-analysis of the deposited data

Results flagged for a closer look

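For 12 synthetase genes of 37 the change from day 0 to day 6 differed between MIGA2-KO and WT by the test of that difference (edgeR quasi-likelihood, adjusted over all genes tested). Over all genes tested, 13.7% were called higher and 13.6% lower by it, so the total of 12 is near the share over all genes. The difference, as log2 change in MIGA2-KO minus log2 change in WT, was -1.16 for Ears2, -0.98 for Aars2, -0.94 for Yars2, -0.82 for Vars2, -0.70 for Iars2, -0.64 for Tars2 and -0.63 for Rars2. Among cytosolic enzymes it was -0.79 for Mars, -0.58 for Qars, -0.34 for Wars, 0.43 for Nars and 0.39 for Tars. Ears2, Aars2, Yars2, Vars2, Iars2, Mars, Qars and Tars were called in each of the 15 fits that left out 1 library.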

How the results depend on the processing

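Of 103 calls of a synthetase gene in a comparison, 73 held in all 23 alternative settings. Leaving out 1 library at a time gave 22 to 26 synthetase genes called over time in WT, 10 to 18 in MIGA2-KO, 10 to 15 between the lines at day 0, 22 to 27 at day 6, 9 to 16 for MIGA2-GFP and 8 to 19 for the difference in change over time. By class these fits gave, over time in WT, 2 to 5 cytosolic higher, 4 to 6 lower and 13 to 14 mitochondrial higher, and in MIGA2-KO 4 to 8 cytosolic lower and 5 to 8 mitochondrial higher. MIGA2-KO against WT gave 9 to 10 cytosolic lower at day 0, and 9 to 13 cytosolic and 11 to 13 mitochondrial lower at day 6. MIGA2-GFP gave 7 to 10 cytosolic and 2 to 5 mitochondrial lower, and the difference in change over time 2 to 6 and 5 to 10 lower.

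Without the 3 libraries that stood apart, the genes called were 22 over time in MIGA2-KO, 22 between the lines at day 0, 27 for MIGA2-GFP and 25 for the difference in change over time. The length pattern within WT falls together with day in this setting, so counts that use WT cannot be read apart from it. By class this gave 7 cytosolic higher over time in WT, 11 cytosolic lower over time in MIGA2-KO, 13 cytosolic and 7 mitochondrial lower in MIGA2-GFP, and 9 cytosolic and 11 mitochondrial lower in the difference. The other genes called for MIGA2-GFP and for the difference were higher. Yars over time in WT reversed to 0.19. The GC and length correction reversed Eprs over time in WT (0.31) and Hars in MIGA2-KO against WT at day 6 (0.15) and gave 8 cytosolic lower over time in MIGA2-KO. Cytosolic genes lower over time in MIGA2-KO were also 8 with DESeq2 and 9 with only the groups compared. Cytosolic genes higher over time in WT were 2 with no count filter and 2 with only the groups compared. Where no value shows the cause of such a change, the cause was not tested.

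Replicate numbers were not used to pair the samples in the main fit. Same-numbered libraries of different groups correlated at -0.723 to 0.125 in their deviations from group means. These values cannot settle whether same-numbered samples were paired, since deviations within WT also carried the length pattern described above. Differently numbered WT libraries did share structure across the days. Day 0 replicate 1 correlated at 0.48 and 0.476 with day 6 replicates 2 and 3. Day 6 replicate 1 correlated at 0.411 and 0.715 with day 0 replicates 2 and 3. The other 2 such pairs were at -0.195 and -0.412. A replicate block does not model this structure. With a replicate block 25 synthetase genes were called over time in WT, 13 in MIGA2-KO, 12 between the lines at day 0, 25 at day 6, 11 for MIGA2-GFP and 10 for the difference. The replicate block with the GC and length correction gave 0.32 for Eprs over time in WT, 0.15 for Hars at day 6, and 8 cytosolic lower over time in MIGA2-KO.

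CPM of raw totals gave cytosolic sums of 3279 and 2085 in WT at day 0 and day 6, 2280 in MIGA2-KO at day 0, 2077 in MIGA2-GFP, and a mitochondrial sum of 2155 in MIGA2-GFP, and without Lars2 put MIGA2-GFP above WT at day 6 (492 against 453), the reverse of the TMM-scaled order. The mitochondrial sum without Lars2, an alternative chosen after seeing the data, was 253, 527, 259, 344 and 506 in WT day 0, WT day 6, MIGA2-KO day 0, MIGA2-KO day 6 and MIGA2-GFP, against 1296, 1293, 2043, 1991 and 2216 with it. With the longest transcript as length, median CPM per kb in that order was 29.0, 35.9, 24.5, 27.0 and 30.2 for cytosolic and 3.79, 8.38, 3.69, 4.27 and 7.17 for mitochondrial enzymes. Depth limits the low members most: Nars2, Sars2, Pars2 and Mars2 lay under 15 CPM in every library.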
